A study of Mus musculus with 2 samples.

Results

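The genes described here are *Cybb* and 5 further genes of the phagocyte NADPH oxidase and its proton channel, *Cyba*, *Ncf1*, *Ncf4*, *Rac2* and *Hvcn1*. They were taken by symbol from the 32589 features of the series, and all 6 were found. They were chosen by measured values of these libraries, with the corticosterone-over-vehicle ratio of *Cybb* in microglia-like cells already known, so that ratio is a description. The 2 libraries held cells sorted as CD45-low and CD11b-positive, the usual gate for microglia, from the prefrontal cortex of C57BL/6 mice, and are labelled vehicle and corticosterone. Corticosterone, a glucocorticoid hormone, was given by oral gavage as a model of depression related to high glucocorticoid levels. No transgene or deletion is named for either group, and age, sex, dose, duration and the number of animals per library are not given in the labels. Each group has 1 library, so no comparison between them could be tested. The intervals given (95%) cover counting error only, not differences between animals or preparations.

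The phagocyte NADPH oxidase moves electrons from NADPH across a membrane onto oxygen and so makes superoxide, which microglia and neutrophils use against microbes and in signalling. *Cybb* encodes gp91phox (NOX2), the catalytic subunit, and *Cyba* encodes p22phox, which forms the membrane core with it and stabilises it. *Ncf1* (p47phox, the organiser) and *Ncf4* (p40phox) encode cytosolic subunits that join the core on activation, together with a Rac GTPase, of which *Rac2* is the form of blood cells. *Hvcn1* encodes a voltage-gated proton channel that offsets the charge the oxidase moves.

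The members lie at different places in the genome (GENCODE annotation of GRCm38, matched by gene identifier). *Cybb* (ENSMUSG00000015340) spans chrX:9435252-9487771 on the minus strand, and *Cyba* (ENSMUSG00000006519) chr8:122424776-122432930 on the minus strand. *Ncf1* (ENSMUSG00000015950) spans chr5:134220053-134229625 on the minus strand, and *Hvcn1* (ENSMUSG00000064267) chr5:122206804-122242297 on the plus strand. *Ncf4* (ENSMUSG00000071715) spans chr15:78244801-78262580 on the plus strand, and *Rac2* (ENSMUSG00000033220) chr15:78559167-78572783 on the minus strand. Promoter windows from RefSeq (GRCm38.p6), from 250 bases before the start site through 20 bases from it on, are printed for *Cybb*, *Cyba* and *Ncf1*, the 3 members matched in the table, so that the catalytic subunit stands beside a membrane partner and a cytosolic partner. They are chrX:9469305-9469574, chr8:122432921-122433190 and chr5:134229606-134229875, all read 5′ to 3′ on the minus strand. The *Cyba* and *Ncf1* windows lie at the 5′ ends of the spans given above. The *Cybb* window lies inside its span, so the RefSeq start used for *Cybb* is not the 5′ end of the GENCODE span. Capitals mark matches on either strand to an ETS and IRF composite (GGAANNGAAA), a pair of IRF half-sites (GAAANNGAAA) or a CCAAT box (CCAAT).
Cybb: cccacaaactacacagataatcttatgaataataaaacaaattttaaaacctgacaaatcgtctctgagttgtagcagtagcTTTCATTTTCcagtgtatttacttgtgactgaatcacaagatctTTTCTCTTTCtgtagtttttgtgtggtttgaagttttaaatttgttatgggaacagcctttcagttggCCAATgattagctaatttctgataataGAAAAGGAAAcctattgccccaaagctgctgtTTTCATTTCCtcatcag
Cyba: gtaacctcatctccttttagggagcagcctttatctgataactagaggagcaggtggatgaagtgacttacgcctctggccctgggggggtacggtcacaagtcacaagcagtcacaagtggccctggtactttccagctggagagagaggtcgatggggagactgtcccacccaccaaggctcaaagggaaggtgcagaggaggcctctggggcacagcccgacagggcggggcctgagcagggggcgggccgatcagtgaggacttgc
Ncf1: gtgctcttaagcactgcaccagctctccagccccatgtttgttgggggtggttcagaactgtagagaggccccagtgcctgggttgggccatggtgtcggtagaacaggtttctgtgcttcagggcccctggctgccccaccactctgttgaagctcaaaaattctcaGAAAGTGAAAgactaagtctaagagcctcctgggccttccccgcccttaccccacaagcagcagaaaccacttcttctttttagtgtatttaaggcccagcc
The *Cybb* window held 5 matches: 3 IRF half-site pairs, starting 168, 124 and 29 bases before the start site, a CCAAT box 56 bases before it, and an ETS and IRF composite 3 bases after it. None of these matches overlapped another. The *Ncf1* window held 1 IRF half-site pair, 82 bases before the start site, and the *Cyba* window held 0 matches. Of 32851 windows of the same length, 2.47% held the composite, 3.21% an IRF half-site pair and 35.4% a CCAAT box, and 5 windows held 3 or more IRF half-site pairs. A match describes letters and is not a binding site.

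After filtering, 10500 vehicle cells and 17883 corticosterone cells remained, with a median of 3220.5 and 3961 UMIs per cell (a UMI is a tag that counts each captured transcript). The median mitochondrial share, a sign of cell quality, was 2.67% and 4.20%, and its part in the results below was not tested. By clustering and marker genes, 7904 vehicle and 15285 corticosterone cells were microglia-like, 1058 and 798 were border macrophage-like (macrophages of the meninges and vessels), and 456 and 397 were neutrophil-like, although the gate is meant to leave out the last class. All 9 microglia markers were detected in microglia-like cells of both libraries. The libraries shared 104 barcodes, where random draws would give 110. The other classes carried microglial RNA: the median level of 4 microglia markers (*Sall1*, *P2ry12*, *Tmem119* and *Siglech*), relative to microglia-like cells, was 0.822 in vehicle and 0.653 in corticosterone for border macrophage-like barcodes. For neutrophil-like barcodes it was 0.557 and 0.357. These 4 markers therefore differed between the libraries in the classes where *Cybb* was compared, and values with this part removed are given beside those results.

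In microglia-like cells, *Cybb* was low in the vehicle library and readily detected in the corticosterone library, whereas the other 5 members differed by less than 2-fold. The summed level of *Cybb* was 7.57 CPM (UMIs of the gene per 1e6 UMIs of the class, 6.65 to 8.58) from 245 UMIs in the vehicle library. In the corticosterone library it was 263 CPM (259 to 267) from 18833 UMIs. This is a ratio of 34.8-fold (30.6 to 39.6), or 5.12 on the log2 scale (4.94 to 5.31). It ranked 1 of 6599 genes with a mean of at least 20 CPM. Of those genes, 1.77% were at least 2-fold higher and 1.29% at least 2-fold lower in corticosterone, and 1 of the 6 members was at least 2-fold higher and 0 were lower. The median log2 ratio was 0.32 over the 6 members and 0.00 over all genes.

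Its membrane partner *Cyba* was measured at 772 and 1142 CPM, a log2 ratio of 0.56 (0.54 to 0.59). It was thus readily detected in the library where *Cybb* was scarce. Of the cytosolic subunits, *Ncf1* was measured at 294 and 276 CPM, a log2 ratio of -0.09 (-0.13 to -0.06). *Ncf4* was measured at 81.3 and 76.6 CPM, also a log2 ratio of -0.09 (-0.15 to -0.02). The sign of these small differences depended on the scaling: with DESeq2 size factors, which move all log2 ratios in this class up by 0.11, *Ncf1* and *Ncf4* both came out above 0, at 0.017 and 0.020. *Rac2* was measured at 165 and 200.02 CPM, a log2 ratio of 0.28 (0.23 to 0.32). *Hvcn1* was measured at 146 and 187 CPM, a log2 ratio of 0.36 (0.31 to 0.40). These 2 genes and *Cyba* were higher in corticosterone under all 12 alternatives run, and lay within the 5th to 95th percentile of all genes in the class (-0.56 to 0.60).

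**Figure D1:**
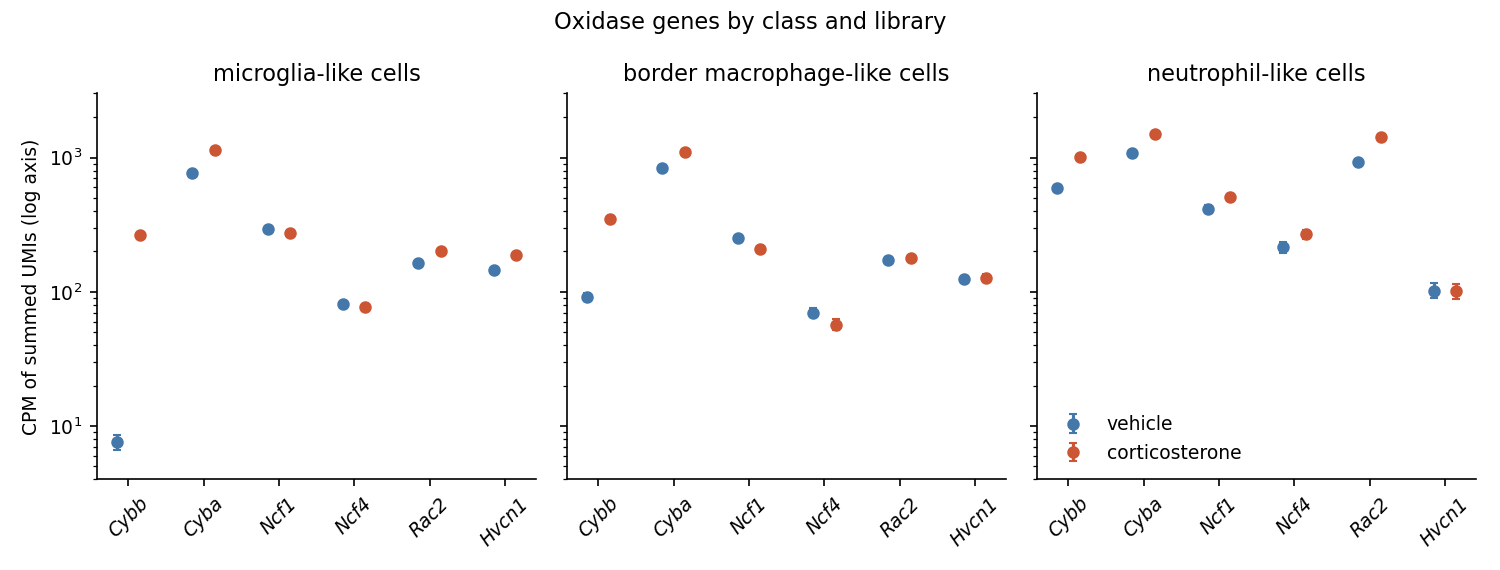
CPM of the 6 genes (log axis) in microglia-like, border macrophage-like and neutrophil-like cells of the vehicle library (blue) and the corticosterone library (orange); points are 1 library each and bars are exact Poisson 95% intervals. In microglia-like cells *Cybb* is at 7.57 and 263 CPM, while the points of the other genes lie close together.

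**Figure D2:**
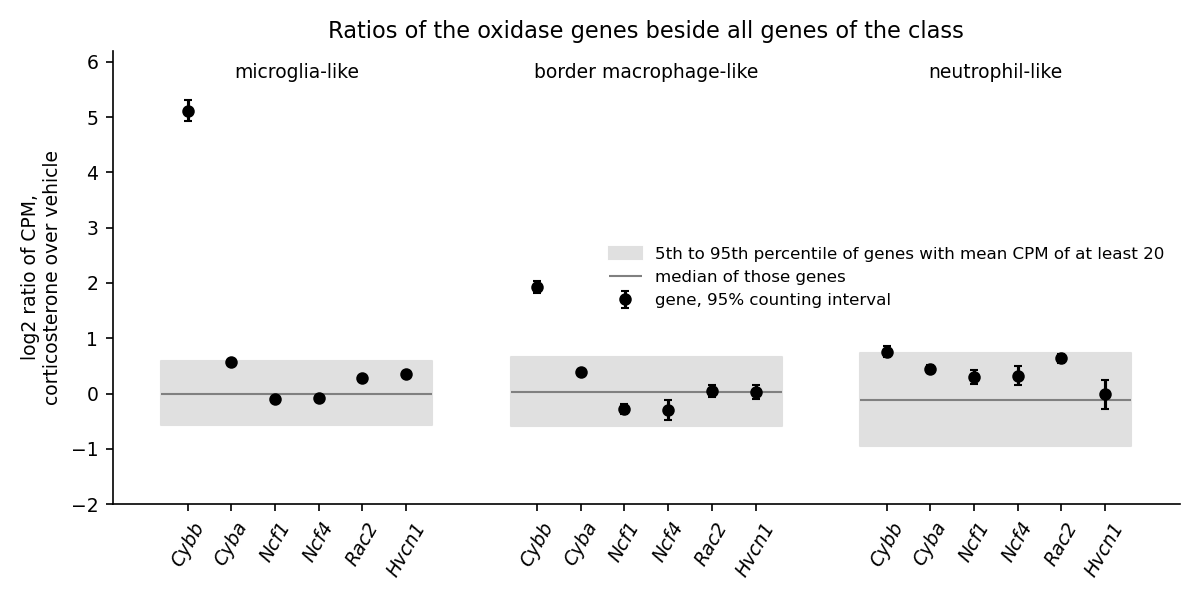
Log2 ratio of corticosterone over vehicle for each gene in 3 classes, with 95% counting intervals; the grey band is the 5th to 95th percentile and the grey line the median of all genes with a mean of at least 20 CPM in that class. *Cybb* lies outside the band in all 3 classes, at 5.12, 1.93 and 0.76, and the other genes lie inside it.

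The difference in *Cybb* was spread over many cells. With each cell thinned to 1000 UMIs, 0.779% of 7318 vehicle microglia-like cells (0.590 to 1.01) and 20.4% of 15191 corticosterone cells (19.8 to 21.1) had a *Cybb* UMI, and 586 and 94 shallower cells were left out. Without thinning the shares were 2.30% and 49.7%. The vehicle share was close to that of erythroid cell-like barcodes of the same library, a class that should lack the gene, at 0.752% of 133 (0.0190 to 4.12). Those barcodes also carried microglial RNA, with 0.8004 of the microglia-like level of the 4 markers, so their share does not give a background free of microglia. Whether the vehicle signal in microglia-like cells is background was not tested. Erythroid cell-like barcodes had a median of 2492.5 UMIs before thinning, and vehicle microglia-like cells 3194. In corticosterone, 15.2% of 66 erythroid cell-like barcodes (7.51 to 26.1) had a *Cybb* UMI. Their interval includes the microglia-like share, and their level of the 4 microglia markers was 0.836 of that in microglia-like cells. Their median was 3763 UMIs, against 4002 in corticosterone microglia-like cells.

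Single cells reached higher counts in corticosterone. The highest *Cybb* count in a microglia-like cell was 7 UMIs in vehicle and 19 in corticosterone. At least 3 UMIs were found in 10 of 7904 vehicle cells (0.127%) and 2673 of 15285 corticosterone cells (17.5%), which carried 64.5% of the *Cybb* UMIs of their library. The level did not depend on depth in corticosterone, where it was 240 CPM (211 to 271) in cells of 500 to 2000 UMIs and 262 CPM (254 to 270) in cells of at least 8000. In vehicle it was 17.5 CPM (12.4 to 23.9) in the shallowest cells and 5.09 CPM (3.71 to 6.81) in the deepest.

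The shares of the other 5 members differed less. *Cyba* had a UMI in 52.3% of thinned vehicle and 66.1% of thinned corticosterone microglia-like cells. The shares were 24.6% and 23.1% for *Ncf1*, 7.50% and 7.35% for *Ncf4*, 14.0% and 17.5% for *Rac2*, and 13.5% and 16.7% for *Hvcn1*. The intervals of the 2 libraries did not overlap for *Cyba*, *Rac2* and *Hvcn1*, and overlapped for *Ncf1* and *Ncf4*. These intervals cover counting error only and are narrow because many cells were counted. The share of all genes without overlap was not worked out, so the lack of overlap does not set these members apart from other genes.

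**Figure D3:**
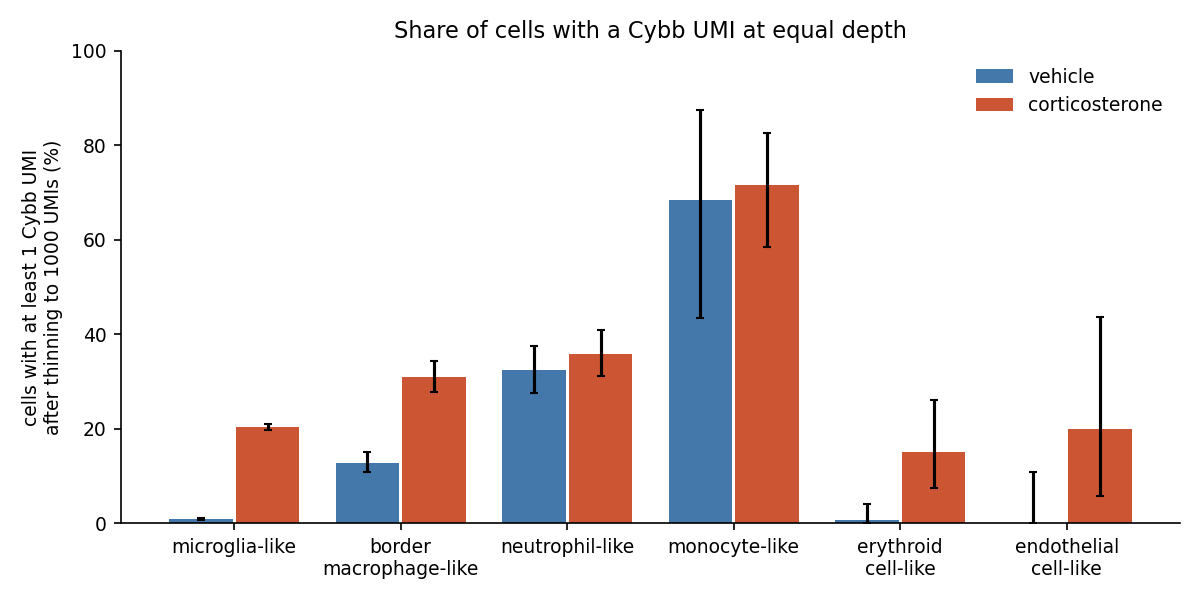
Share of cells (%) with at least 1 *Cybb* UMI after each cell was thinned to 1000 UMIs, by class and library; bars over columns are Clopper-Pearson 95% intervals. Microglia-like cells are at 0.779% and 20.4%, and neutrophil-like cells at 32.3% and 35.9%.

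The size of the ratio depended on which cells were called microglia-like. Calling cells one by one from their own markers gave 9493 vehicle cells at 24.5 CPM and 15963 corticosterone cells at 263 CPM, a log2 ratio of 3.43. Keeping only the 818 vehicle and 1226 corticosterone cells with no UMI of another class's markers gave 17.3 CPM (33 UMIs) and 257 CPM, a log2 ratio of 3.89. These cells were shallower, with medians of 2214 and 3048 UMIs, than the class as a whole. The corticosterone level was similar in each case and the vehicle level differed. Markers of other classes in microglia-like cells moved as follows. The summed level of 8 border macrophage markers was 84.4 CPM in vehicle and 39.1 CPM in corticosterone, with 8 of 8 lower. That of 12 neutrophil markers was 921 and 700 CPM, with 10 of 12 lower. That of 6 monocyte markers was 9.86 and 20.4 CPM, with 4 of 6 higher. None of these markers was at 0 in either library, and their part in the *Cybb* result was not tested.

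*Cybb* was higher in corticosterone in all 6 microglia-like clusters, some of them with few UMIs. Cluster 13 held 4 *Cybb* UMIs in 2 corticosterone cells and 8 in 18 vehicle cells, and cluster 2 had 4 vehicle UMIs. The 2 main clusters were each mostly of 1 library: cluster 0, led by *Rcan1*, *Adamts1* and *Ier3*, held 234 vehicle and 10545 corticosterone cells, and cluster 1 held 7236 and 208. In cluster 0 the vehicle cells were at 12.9 CPM (6.19 to 23.7) and the corticosterone cells at 253 CPM (249 to 257). In cluster 1 they were at 6.12 CPM (5.27 to 7.06) and 93.3 CPM (73.3 to 117). Cells of the minority library therefore kept a level nearer to that of their own library than to that of their cluster's majority, on the log scale.

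Small clusters had the highest levels. In cluster 5, led by *Il12b*, *Ifnb1*, *Ccl5* and interferon-induced genes such as *Ifit2*, the 43 vehicle cells had *Cybb* at 131 CPM (80.2 to 203) and the 700 corticosterone cells at 502 CPM (480 to 525). In cluster 10, led by *Lpl*, *Spp1* and *Mmp12*, the 55 vehicle cells had it at 60.6 CPM (35.3 to 97.1) and the 60 corticosterone cells at 462 CPM (399 to 532). With genes centred within each library before clustering again, so that each sub-cluster drew cells from both libraries, the largest sub-cluster (4910 and 9419 cells) was at 4.85 CPM (4.03 to 5.79) and 247 CPM (243 to 252). A sub-cluster led by interferon-induced genes (201 and 978 cells) was at 31.4 CPM (20.5 to 46.1) and 467 CPM (448 to 486). A further sub-cluster (215 and 170 cells) was led by the neutrophil genes *Ngp*, *Camp* and *Ltf*, with *Cybb* at 34.9 CPM (21.3 to 54.0) and 269 CPM (231 to 312). *Ncf1* stayed between 189 and 322 CPM in the 5 microglia-like clusters other than the dividing cells of cluster 13, of which the corticosterone library held 2.

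**Figure D4:**
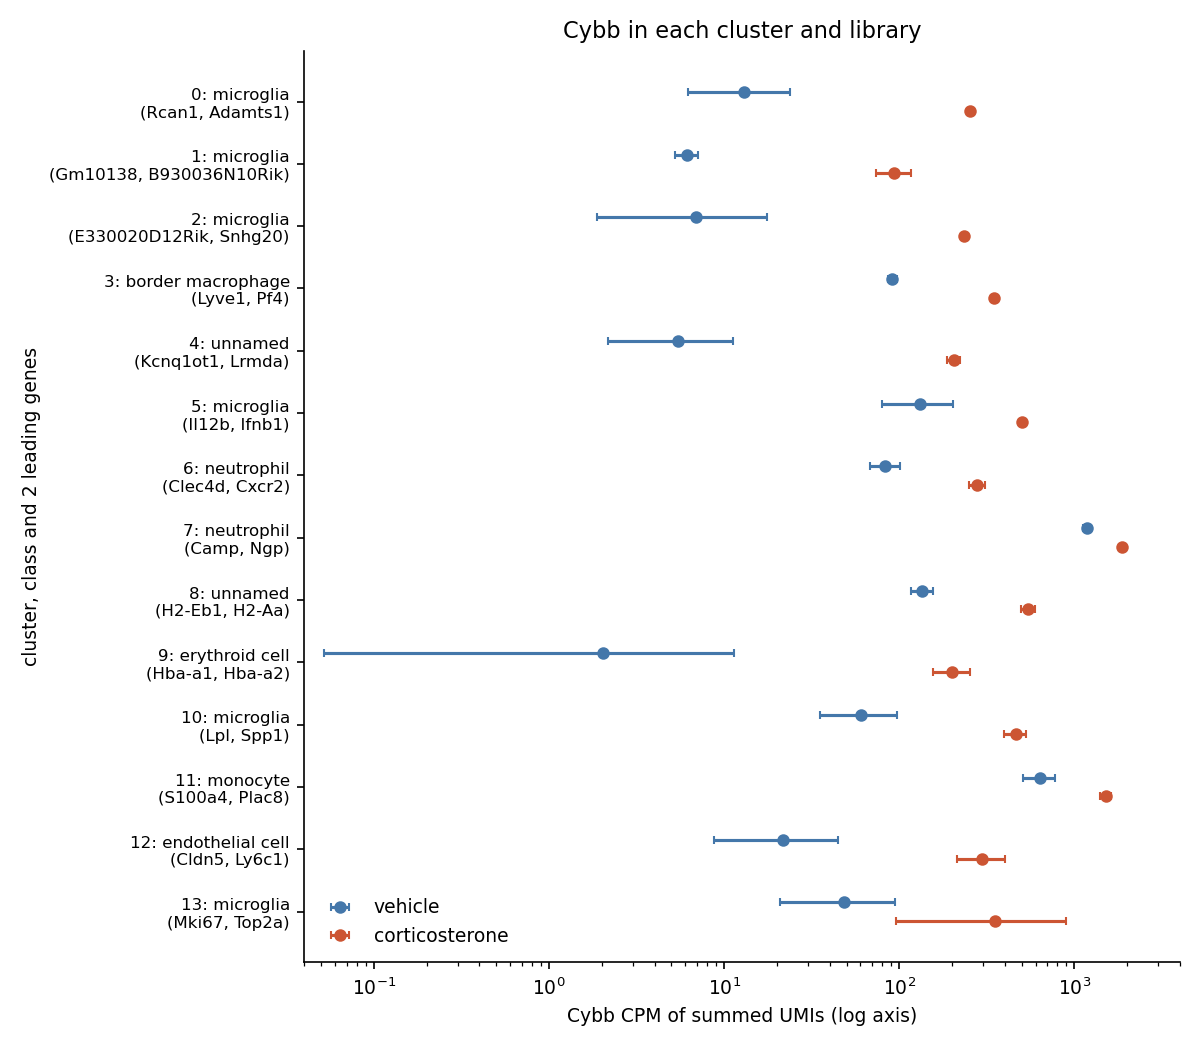
*Cybb* CPM (log axis) in each cluster, with its class and 2 leading genes, in the vehicle library (blue) and the corticosterone library (orange); bars are exact Poisson 95% intervals. The corticosterone point lies to the right of the vehicle point in every cluster, and the vehicle points range from 2.03 CPM in cluster 9 to 1178 CPM in cluster 7.

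In border macrophage-like cells the vehicle level of *Cybb* was 91.5 CPM (85.9 to 97.3) and the corticosterone level 348 CPM (334 to 362), which gives a log2 ratio of 1.93 (1.82 to 2.03). Here 2.19% of 6573 genes were at least 2-fold higher and 1.1% at least 2-fold lower, and 1 of the 6 members was higher and 0 were lower. *Cybb* ranked 29. The summed level of the 8 border macrophage markers was 3339 and 6939 CPM, with 8 of 8 higher, and that of the 9 microglia markers 29028.5 and 20531 CPM, with 9 of 9 lower. At Leiden resolution 1.0 most of the class fell into a cluster of 948 vehicle and 16 corticosterone cells and a cluster of 96 and 750, each mostly of 1 library. The microglial part was also removed in 2 ways chosen after seeing the data, and both gave a smaller log2 ratio. Subtracting the microglial part, taken from the 4 markers, left levels of 479 and 507 CPM, a log2 ratio of 0.082 (-0.37 to 0.52 over the markers' range). In barcodes with at most 10% of the microglia-like marker level, 33 vehicle cells had *Cybb* at 474 CPM (346 to 634) and 152 corticosterone cells at 489 CPM (434 to 548), for a log2 ratio of 0.044 (-0.41 to 0.53). The interval includes differences of up to 0.53, so equal levels are not shown. The range over the markers holds no counting error. The barcodes low in microglia markers were 33 of 1058 in vehicle and 152 of 798 in corticosterone, so the libraries were not selected alike. The part of microglial RNA in the *Cybb* difference was not tested.

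For the other members in border macrophage-like cells, *Cyba* was at 829 and 1091 CPM (log2 ratio 0.40, 0.35 to 0.44), *Ncf1* at 252 and 208 CPM (-0.28, -0.37 to -0.18) and *Ncf4* at 70.1 and 57.1 CPM (-0.30, -0.48 to -0.12). *Rac2* was at 173 and 179 CPM and *Hvcn1* at 124 and 127 CPM, with ratios of 0.05 (-0.06 to 0.15) and 0.03 (-0.10 to 0.15) whose intervals include 0. Subtracting the microglial part turned the sign of all 5 ratios: *Cyba* came to -0.13 (-0.30 to -0.02), *Ncf1* to 0.54, *Ncf4* to 0.18 and *Hvcn1* to -0.80. *Rac2* came to -0.61 (-0.79 to -0.50). For *Ncf1*, *Ncf4* and *Hvcn1* the subtracted level was below 0 at the upper end of the marker range in at least 1 library, so no range is given and these values are not reliable. Barcodes low in microglia markers had *Cyba* at 790.0 and 896 CPM (0.18, -0.17 to 0.55), and *Rac2* at 190 and 132 CPM (-0.52, -1.28 to 0.30). They had *Ncf1* at 94.8 and 98.1 CPM from 9 and 58 UMIs, below the level of the whole class in both libraries. *Ncf4* and *Hvcn1* had 1 vehicle UMI each there.

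In neutrophil-like cells, the class with the most *Rac2*, the vehicle level of *Cybb* was 596 CPM (565 to 629) and the corticosterone level 1008 CPM (968 to 1049), for a log2 ratio of 0.76 (0.66 to 0.85). The summed level of the 12 neutrophil markers in these cells was 140321 and 189223 CPM, with 12 of 12 higher, and that of the 6 monocyte markers 703 and 1856 CPM, with 5 of 6 higher. Monocyte-like cells had the highest *Cybb* level of the named classes, and the part of these markers in the *Cybb* difference was not tested. Of 5933 genes, 2.11% were at least 2-fold higher and 4.35% at least 2-fold lower, and 0 of the 6 members were in either set. *Cybb* ranked 278. With the microglial part subtracted the levels were 1336 and 1421 CPM, a log2 ratio of 0.089 (-0.09 to 0.18). In barcodes with at most 10% of the microglia-like marker level 106 vehicle cells were at 1678 CPM (1555 to 1807) and 247 corticosterone cells at 1464 CPM (1392 to 1539), a log2 ratio of -0.20 (-0.33 to -0.07). The sign thus turned in the barcodes with the least microglial RNA. Giving each cell the same weight, by thinning to 1000 UMIs, gave a log2 ratio of 0.032.

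Different clusters held most of this class in each library. Cluster 7, led by the granule genes *Camp*, *Ngp* and *Ltf*, held 257 vehicle and 124 corticosterone cells with *Cybb* at 1178 CPM (1114 to 1245) and 1869 CPM (1789 to 1953). Its corticosterone cells had a median of 7497.5 UMIs and its vehicle cells 2740.0. Cluster 6, led by *Clec4d*, *Cxcr2* (a chemokine receptor of mature neutrophils) and *Stfa2l1*, held 199 and 273 cells at 83.1 CPM (67.7 to 101) and 279 CPM (250.3 to 309). The level was higher in cluster 7 than in cluster 6 in both libraries. The clusters differed in microglial RNA: the geometric mean of the microglia markers, relative to all cells of the same library, was 0.303 in cluster 7 and 0.661 in cluster 6. Its part in these levels was not tested by cluster.

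*Rac2* in neutrophil-like cells was at 922 and 1434 CPM, a log2 ratio of 0.64 (0.56 to 0.72), and *Cyba* was at 1089.6 and 1488 CPM, a log2 ratio of 0.45 (0.37 to 0.52). *Ncf1* was at 413 and 509 CPM (0.30, 0.18 to 0.43), and *Ncf4* at 215 and 268 CPM (0.32, 0.15 to 0.49). *Hvcn1* was at 102 and 101 CPM (-0.02, -0.28 to 0.25). With the microglial part subtracted, the log2 ratios were 0.18 for *Rac2* (-0.00083 to 0.26), 0.17 for *Cyba* (0.09 to 0.22), 0.18 for *Ncf1* (0.08 to 0.23) and -0.03 for *Ncf4* (-0.19 to 0.04). All 4 were smaller than without the subtraction. *Hvcn1* came to 0.19 (0.0073 to 0.69). In barcodes low in microglia markers the log2 ratios were 0.17 for *Rac2* (0.05 to 0.29), 0.10 for *Cyba* (-0.03 to 0.24), -0.02 for *Ncf1* (-0.22 to 0.18), -0.17 for *Ncf4* (-0.42 to 0.09) and -0.59 for *Hvcn1* (-1.15 to -0.0077). The sign thus turned for *Ncf1* and *Ncf4*, and *Hvcn1* differed in sign between the 2 removals.

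**Figure D5:**
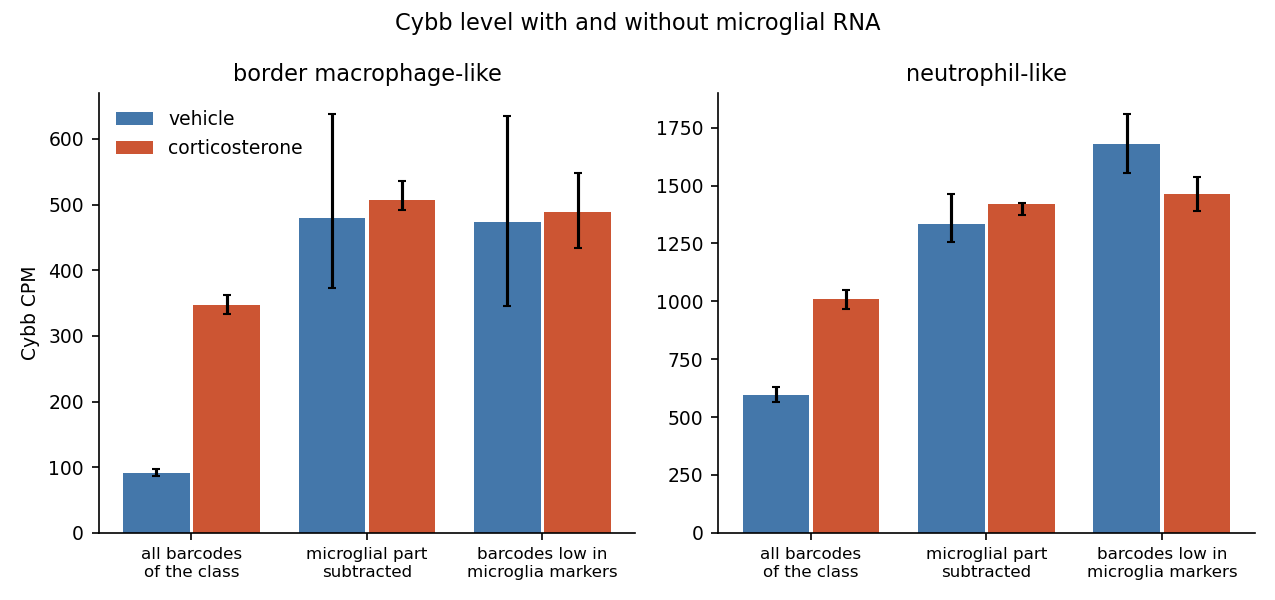
*Cybb* CPM in border macrophage-like and neutrophil-like cells of the vehicle library (blue) and the corticosterone library (orange), in all barcodes, with the microglial part subtracted, and in barcodes with at most 10% of the microglia-like level of 4 markers; bars are exact Poisson 95% intervals or, for the subtraction, the range over the markers. In border macrophage-like cells the levels go from 91.5 and 348 CPM to 474 and 489 CPM.

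The order of *Cybb* levels over classes was the same in both libraries. Monocyte-like cells had the highest level, with 30 vehicle cells at 632 CPM (512 to 773) and 60 corticosterone cells at 1511 CPM (1407 to 1621), followed by neutrophil-like cells. In vehicle the intervals of these 2 classes overlapped. Border macrophage-like cells came next, then endothelial cell-like barcodes, at 21.7 CPM (8.74 to 44.8) and 296 CPM (213 to 400.0), then microglia-like cells. In corticosterone the endothelial cell-like interval included the levels of both neighbours. Erythroid cell-like barcodes were lowest, with 1 UMI over 164 vehicle barcodes and 201 CPM (157 to 254) over 68 corticosterone barcodes. The libraries' spread over classes differed: vehicle microglia-like and border macrophage-like levels were 7.57 and 91.5 CPM, and the corticosterone levels 263 and 348 CPM. All these levels include microglial RNA. With it subtracted, border macrophage-like levels were 479 CPM in vehicle and 507 CPM in corticosterone. Endothelial cell-like barcodes carried 0.878 and 0.810 of the level of the microglia markers, and erythroid cell-like barcodes 0.8004 and 0.836. The part of this RNA in the order and spread was not tested. *Cyba*, *Ncf1*, *Ncf4* and *Rac2* were also higher in neutrophil-like than in microglia-like cells of each library, whereas *Hvcn1* was lower there, at 102 against 146 CPM in vehicle and 101 against 187 CPM in corticosterone.

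The further partners of the oxidase reported here differed by less than 2-fold in microglia-like cells. *Cybc1*, a chaperone needed for the NOX2 protein, was at 81.5 and 111 CPM, a log2 ratio of 0.45. *Rac1* (-0.01), *Rap1a* (0.14) and *Arhgdib* (0.28), which encode small GTPases and a regulator of such GTPases, had smaller log2 ratios. Of the 9 other oxidases and their partners, such as *Nox1* and *Nox4*, 0 reached a mean of 20 CPM.

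Of the receptors and kinases that act upstream of the oxidase, 15 of 17 reached that level, 3 were at least 2-fold higher and 0 lower, with a median log2 ratio of 0.13. The highest was *C5ar1*, the receptor for complement C5a, at 159 and 433 CPM (1.44), and the lowest *Itgam*, the CD11b gene, at 519 and 351 CPM (-0.57). *Tlr2* (1.17) and *Itgb2* (1.08) were the other 2 past 2-fold and are named after their values were seen. Of all 6599 genes at that level in the class, 1.77% were at least 2-fold higher and 1.29% at least 2-fold lower. Of the genes that remove superoxide and peroxide, 18 of 21 reached the level and 0 were 2-fold higher or lower, from *Gsr* (0.57) to *Hmox1* (-0.55), with a median of 0.16. Of the genes that supply NADPH, 8 of 9 reached it and 0 were past 2-fold. Of these 8, 6 were above 0, against 49.96% of all 6599 genes, a difference that was not tested. Their median was 0.42. The highest was *Tkt*, an enzyme of the pentose phosphate pathway, at 97.9 and 194 CPM (0.99), and the lowest *Idh1* (-0.44). Of 5 genes of myeloperoxidase and nitric oxide synthesis, 0 reached the level.

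Of the transcription factors known to act on *Cybb*, those reported here differed by less than 2-fold in microglia-like cells. *Spi1* (PU.1, an ETS factor) was at 563 and 667 CPM (0.24), and *Irf8* at 693 and 854 CPM (0.30). *Irf1* (0.02), *Cebpa* (0.00), *Rela* (-0.01) and *Cebpb* (-0.06) had log2 ratios near 0. *Cebpe* was measured below 20 CPM.

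Over 9 sums by class and library with at least 50 cells, the genes whose level on the log2(CPM + 1) scale was most like that of *Cybb* were *Apaf1* (Pearson r = 0.95), *Igsf6* (0.95), *Arhgap15* (0.95), *Ifitm3* (0.95) and *Rtp4* (0.95), of 6318 genes ranked. The points share libraries and microglial RNA, so r is a description. *Cyba* ranked 31 (0.91), *Rac2* 580 (0.68), *Ncf4* 932 (0.57), *Ncf1* 2191 (0.14) and *Hvcn1* 4645 (-0.53). In microglia-like cells *Ifitm3*, which encodes an interferon-induced membrane protein, was at 23.5 and 140 CPM, and *Igsf6* at 64.1 and 207 CPM. Of the 4 RefSeq genes next to *Cybb* on chromosome X, 2 on either side, *H2al1k* matched the features by symbol and had 0 UMIs in microglia-like cells.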

How the data were processed

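The authors deposited raw UMI counts per gene and barcode for 1 vehicle and 1 corticosterone library (49325067 and 85103539 UMIs after filtering). Per the labels' protocols, libraries were made with a Singleron GEXSCOPE kit after digestion and sorting. The submitters' processing notes name bcl2fastq 2.19 and GRCm38, while aligner and counting program are not given in the sources used here. The deposited files are named wild type and depression, and groups follow the sample records.

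Barcodes with 500 or more UMIs, 300 or more genes and no more than 20% mitochondrial UMIs were kept (10500 of 10555 and 17883 of 18113). Scrublet marked 0 and 2 cells at its automatic threshold, and no doublet was removed. Whether it missed doublets was not tested. Clustering used 2000 variable genes without the 6 members, chosen with scanpy 1.11.5. A graph of shared neighbours was built from 30 components and 15 neighbours (sklearn 1.9.0), and split with leidenalg 0.10.2 at Leiden resolution 0.5. Clusters were named from 3 or more detected markers at 2 times their level in other cells (17 lists), and failing that as microglia-like from the geometric mean of the microglia markers. A name was withdrawn when the leading genes held more markers of another list. It was also withdrawn from clusters shallow for their library with no marker of their own among the leading genes. Clusters 4 and 8 thus stayed unnamed with geometric means above the minimum of 0.5. These folds were taken within each library, a rule set after seeing the data, because folds across libraries left the main vehicle cluster unnamed. UMIs were summed per class and library. Members and lists were chosen with earlier results of these data known. Named genes are the members, the extremes of 7 pathway lists, the measured partners and transcription factors (some are not reported here), and the 5 genes most like *Cybb* with its neighbours. Intervals are exact Poisson, conditional binomial (ratios) and Clopper-Pearson (shares). Calculations were checked on simulated data. Alternatives used edgeR 4.0.16 TMM and DESeq2 1.42.0 factors (scaling only), other cell filters, resolutions, class calls and cell weights, and 2 removals of the microglial part added after seeing the data.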

Additional observations from a re-analysis of the deposited data

Results flagged for a closer look

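A pair of clusters stayed without a class name and entered none of the comparisons by class, yet held *Cybb* UMIs. Cluster 4, led by *Kcnq1ot1* and *Lrmda*, with a median of 1089 and 1260.5 UMIs per barcode, held 667 vehicle barcodes with *Cybb* at 5.43 CPM (2.18 to 11.2) and 1162 corticosterone barcodes at 205 CPM (187 to 223). Cluster 8, led by the antigen presentation genes *H2-Eb1*, *H2-Aa*, *H2-Ab1* and *Cd74*, held 181 vehicle barcodes at 136 CPM (117 to 156) and 89 corticosterone barcodes at 545 CPM (496 to 598). In each cluster the corticosterone level was above the vehicle level. Both clusters also held microglial RNA. The geometric mean of the microglia markers, relative to all cells of the same library, was 0.716 in cluster 4 and 0.828 in cluster 8. No microglial part was removed for these clusters, and its part in the differences was not tested.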

How the results depend on the processing

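Without replicates, a value was counted as moved when it left its counting interval. *Cybb* was higher in corticosterone in all 3 classes under each of the 12 settings other than the added removals. In border macrophage-like and neutrophil-like cells, the 2 removals of the microglial part gave log2 ratios with intervals or ranges that included 0. The exception was neutrophil-like barcodes low in microglia markers, where the ratio was negative. Subtraction was also run for monocyte-like cells, where *Cybb* stayed higher in corticosterone. Levels there were 1416 and 1900.5 CPM, a log2 ratio of 0.42 (0.23 to 0.71 over the markers' range). That range holds no counting error, and the vehicle level rests on 95 UMIs in 30 cells. Only 9 vehicle monocyte-like cells were low in microglia markers, so no ratio is given for that removal. For erythroid cell-like barcodes subtraction gave *Cybb* at -20.2 and -114 CPM, below 0, so these values are not reliable. In microglia-like cells its log2 ratio moved to 3.43 (classes called per cell), 2.34 (all classes together), 3.89 (cells without other classes' markers) and 4.68 (mean of cells' CPM). In border macrophage-like cells the same 4 settings gave 0.83, 2.34, 1.12 and 1.52, thinning gave 1.50, and the 2 added removals of the microglial part gave 0.082 and 0.044. In neutrophil-like cells it was 0.93 with TMM, 0.92 with DESeq2 size factors, 0.20 per cell, 2.34 over all classes, 0.98 without the highest Scrublet scores, 0.19 as the mean of cells' CPM, 0.032 after thinning, and 0.089 and -0.20 with the added removals. The setting without other classes' markers (1.12 in border macrophage-like cells) kept 114 vehicle cells of that class. Only 33 vehicle cells of it were low in microglia markers, so some of those kept still carried microglial RNA. The share of microglia-like cells with a *Cybb* UMI was 2.30% and 49.7% without thinning and 1.33% and 33.5% at 2000 UMIs. Genes past 2-fold in microglia-like cells numbered 202, 223 with TMM, 228 with DESeq2 size factors and 812 at a mean of at least 1 CPM. Of these, 117 of 202 were higher, against 151 of 223 and 157 of 228 with the other scalings. Scaling moved all log2 ratios by 0.09 (TMM) or 0.11 (DESeq2) in microglia-like and 0.18 or 0.17 in neutrophil-like cells. Among the other members, signs changed for *Ncf1* and *Ncf4* in microglia-like, *Rac2* and *Hvcn1* in border macrophage-like, and *Hvcn1* in neutrophil-like cells under settings that kept to the class, the added removals aside. The cause of each move was not tested. No paired analysis was possible because each group has 1 library. With 1 library per group, treatment, preparation and animals cannot be told apart.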
